A study of Homo sapiens with 5 samples.

Results

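The mRNA levels of 10 genes of the cohesin complex and its partners were measured in RPE1 cells after doxorubicin. The genes were taken from the table of counts by their names, and comprised the ring subunits SMC1A, SMC3 and RAD21, the alternative subunits STAG1 and STAG2, the loader subunits NIPBL and MAU2, the associated factors PDS5A and PDS5B, and the DNA-binding protein CTCF. All 10 were among the 26485 genes of the table, and all 10 were among the 14187 genes that passed the filter on low counts. RPE1 is an established, immortalized line of human retinal pigment epithelial cells, and all 5 libraries had the genotype WT (wild type). Of the 5 RNA-seq libraries, 2 came from cells given DMSO, the solvent of the drug, 2 from cells given 0.2 µM doxorubicin and 1 from cells given 0.34 µM doxorubicin, all for 18 h. The sample titles give these concentrations, while the description of the treatment states far larger ones in the same unit. Doxorubicin is an anthracycline that intercalates into DNA, traps topoisomerase II and causes double-strand breaks. The study asked how the drug changes the folding of the genome, and the comparison of RNA was of the 3 doxorubicin libraries as one group with the 2 DMSO libraries.

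Cohesin is a ring of SMC1A, SMC3 and RAD21 that entraps DNA, to which either STAG1 or STAG2 is bound. NIPBL, with its partner MAU2, loads the ring and drives the extrusion of chromatin loops, and PDS5A or PDS5B binds the ring and regulates its release and its acetylation. CTCF binds DNA through zinc fingers and halts cohesin at the anchors of loops and at the boundaries of domains. Besides folding the genome in interphase, cohesin holds sister chromatids together from replication until anaphase and acts in the repair of broken DNA.

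The counts on genes summed to between 23773061 and 36725345 per library, the 0.34 µM library being the deepest and the only one of its dose. The methods of the study call the libraries biological replicates, and the p-values measure the spread between these libraries. The DMSO libraries differed from each other more than the doxorubicin libraries did for several of the genes, with gaps of replicate 2 over replicate 1 from -0.56 (NIPBL) to 0.41 (STAG1) in log2 CPM (counts scaled to the size of the library, after TMM normalization). Of 10 markers of retinal pigment epithelium, 5 were tested, and the summed level of all 10 was between 55.7 and 88.2 CPM. OTX2 and MITF were expressed (means of 26.4 and 42.9 CPM in DMSO), whereas RPE65, RLBP1, TYR, LRAT and TTR, markers of differentiated pigment epithelium, had at most 25 counts in any library and were not tested. VIM, FN1, CDH2 and COL1A1, markers of mesenchymal and cultured cells, were at means of 5801, 14136, 414 and 176 CPM in DMSO. The DMSO libraries differed widely for FN1 (19193 and 9080 CPM) and COL1A1 (287 and 64.5 CPM). The 0.2 µM libraries differed in the same order of replicates, at 19659 and 11510 CPM for FN1 and at 189 and 42.7 for COL1A1. At 0.34 µM the levels were 19325 and 151 CPM. The epithelial keratins KRT8 and KRT18 were at 357 and 282 CPM in DMSO and at 653 and 436 CPM in doxorubicin, with all doxorubicin libraries above DMSO and KRT8 called higher by DESeq2 but not by edgeR. CDH1 and EPCAM had at most 4 counts, and the summed level of 5 blood and endothelial markers was between 0.496 and 3.03 CPM, with CD3E at 0 counts in all libraries. These sums were higher in doxorubicin (1.89 to 3.03) than in DMSO (0.496 and 0.744). The rise was largest for PTPRC (means of 1.72 against 0.232 CPM). Of the pigment epithelium markers, PMEL (0.851 to 1.33 against 0.196 and 0.267 CPM) and BEST1 (means of 2.83 against 0.77 CPM) were also higher. SERPINF1 was lower (means of 0.379 against 0.778 CPM), with overlap of the groups. LRAT was lower as well (0.0387 to 0.166 against 0.229 and 0.979 CPM). MITF and OTX2 had log2 fold changes of 0.050 and -0.021. The part of these markers in the results was not tested.

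The 3 subunits of the ring fell together. SMC1A, 1 of the 2 coiled-coil ATPases of the ring, lies at chrX:53374149-53422728 of GRCh38. Its level was 225 and 205 CPM in DMSO, 84.1 and 80.8 at 0.2 µM and 76.6 at 0.34 µM. SMC3, its partner ATPase, at chr10:110567695-110606048, was at 303 and 232 CPM in DMSO, at 112 and 120.5 at 0.2 µM and at 114 at 0.34 µM. RAD21, the kleisin that closes the ring and that separase cleaves in anaphase, at chr8:116845934-116874776, was at 272 and 359 CPM in DMSO, at 121 and 135 at 0.2 µM and at 111 at 0.34 µM. Every doxorubicin library thus lay below both DMSO libraries for each ring subunit, and the doxorubicin libraries lay closer to each other than the DMSO libraries did for SMC3 and RAD21. The error given with a log2 fold change is its standard error (SE), and adjusted p-values are those of edgeR's quasi-likelihood test unless DESeq2 is named. SMC1A fell 2.67-fold (-1.42 ± 0.13 on the log2 scale, edgeR adjusted p = 0.00186). The fall of RAD21 was 2.58-fold (-1.37 ± 0.18, edgeR adjusted p = 0.00544) and that of SMC3 2.31-fold (-1.21 ± 0.16, adjusted p = 0.00617). All were adjusted over all genes tested, and the threshold was 0.01 as in the methods of the study. In bulk RNA, fewer cells that express a gene and less of its RNA per cell cannot be told apart.

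**Figure D1:**
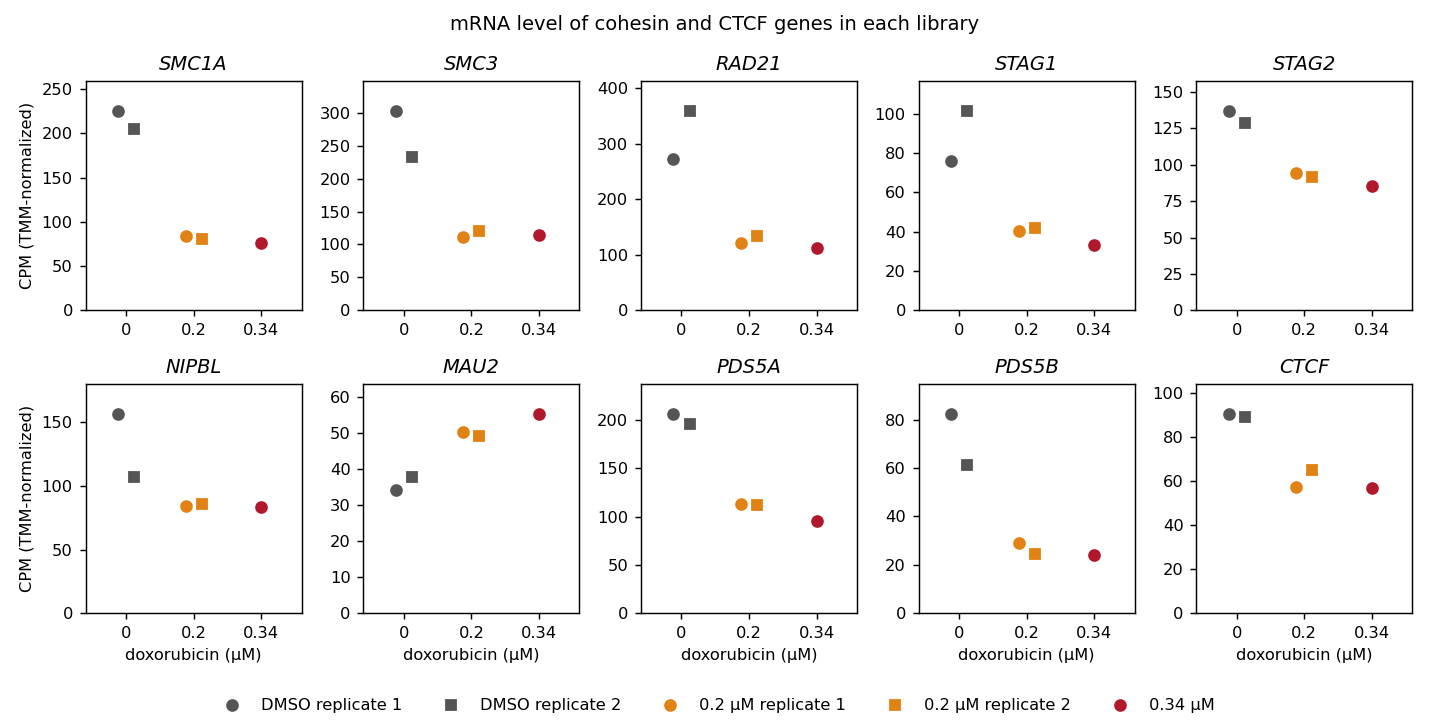
Normalized level in CPM (vertical axis, from 0, with its own scale in each panel) of the 10 genes in each of the 5 libraries, by doxorubicin concentration in µM; each point is 1 library. For 9 genes all 3 doxorubicin libraries lie below both DMSO libraries, and for MAU2 all 3 lie above them, at 49.0 to 55.2 CPM against 34.1 and 37.8.

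Of the 10 genes, 5 passed the threshold, all of them lower after doxorubicin, where 2.73% of all genes tested were called lower. In edgeR 0 of the 10 were called higher, where 1.29% of all genes were, and MAU2 was the 1 gene higher with an unadjusted p under 0.05 (15.2% of all genes were), which DESeq2 and limma voom did not call either. These 5 were PDS5B, SMC1A, RAD21, SMC3 and STAG1. PDS5A lay just outside the threshold, and CTCF, STAG2, NIPBL and MAU2 did not pass it. DESeq2, the tool of the study, called 8 of the 10, all lower (8.02% of all genes tested were called lower and 6.59% higher), and the 2 it did not call were NIPBL and MAU2. In 9 genes the doxorubicin libraries all lay below both DMSO libraries (23.4% of genes overall), and in 1, MAU2, all lay above (24.3%). The median log2 fold change of the 10 genes was -1.06, beside 0.013 over all genes tested. The summed level of the 10 genes was 1584 and 1518 CPM in DMSO and 785, 806 and 736 CPM in doxorubicin. The calls in edgeR did not hold when a doxorubicin library was left out of the same fit. With each doxorubicin library left out in turn, 0 of the 10 passed. Over all genes tested the share called also fell, from 4.02% to between 1.28% and 1.48%. The loss of calls was thus not limited to the 10 genes. Dropping a DMSO library leaves 1 in that group, so only the size of the change is given. The median log2 fold change of the 10 genes became -0.95 when DMSO replicate 1 was dropped and -0.99 when replicate 2 was.

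**Figure D2:**
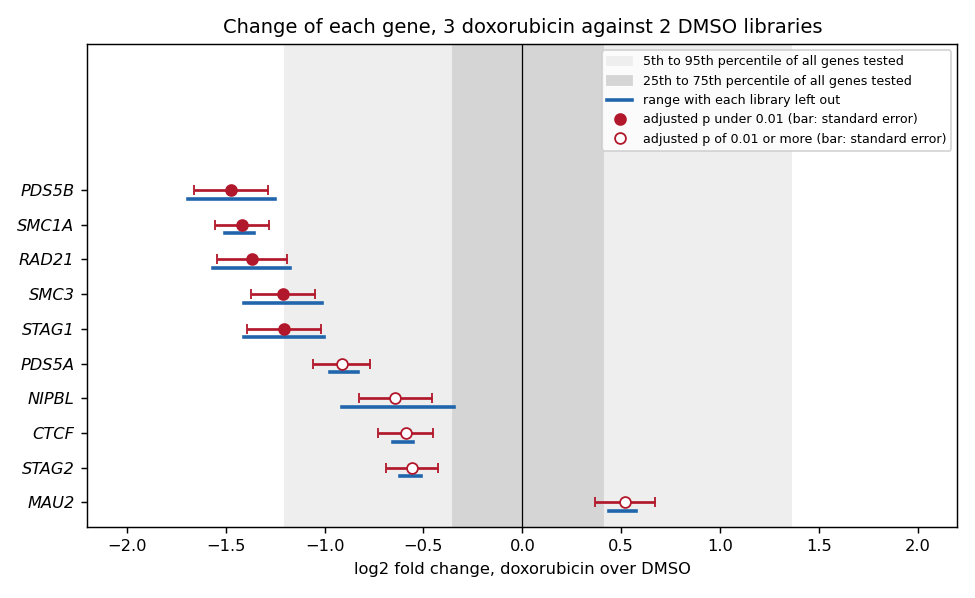
Log2 fold change of doxorubicin over DMSO (horizontal axis) for each gene, with its standard error, on the percentiles of all genes tested; filled points passed an adjusted p of 0.01 in edgeR and blue lines span the values with each library left out in turn. PDS5B, SMC1A and RAD21 lie furthest to the left, at -1.48, -1.42 and -1.37, and MAU2 alone lies to the right of 0, at 0.52.

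STAG1 and STAG2 are paralogs that occupy the same place on the ring, so that a complex holds either. STAG1 (chr3:136336236-136752378) was at 76.3 and 102 CPM in DMSO, at 40.5 and 41.9 at 0.2 µM and at 33.3 at 0.34 µM. STAG2 (chrX:123960560-124102656) was at 137 and 129 CPM in DMSO, at 94.2 and 91.4 at 0.2 µM and at 85.7 at 0.34 µM. In both genes the groups did not overlap. STAG1 fell 2.30-fold (-1.20 ± 0.19 on the log2 scale, edgeR adjusted p = 0.00996), very near the threshold, and lost its call with RLE or upper quartile normalization, with counts thinned to equal depth and with limma voom. STAG2 had a log2 fold change of -0.56 (± 0.13, edgeR adjusted p = 0.0383), which passed with DESeq2 (adjusted p = 0.00139).

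The ratio of the counts of both paralogs within a library does not depend on the normalization. STAG1 made up 35.8% (95% exact binomial interval 34.5% to 37.0%) and 44.1% (42.8% to 45.3%) of the counts of the pair in DMSO. It made up 30.1% (28.6% to 31.6%) and 31.4% (29.8% to 33.1%) at 0.2 µM and 28.0% (26.7% to 29.4%) at 0.34 µM, below both DMSO libraries in each case. The intervals cover counting error only. The intervals of the DMSO libraries did not overlap each other. The log2 ratio of STAG1 to STAG2 was -0.59 ± 0.35 (SD, n = 2) in DMSO and -1.23 ± 0.12 (SD, n = 3) in doxorubicin, a difference of -0.64 (exact two-sided permutation test over libraries, p = 0.2, adjusted p = 0.3 over 6 ratios). Its size rested on the DMSO libraries, since leaving out DMSO replicate 1 gave -0.89 and leaving out DMSO replicate 2 gave -0.39. With 3 libraries against 2, this p of 0.2 is the smallest that the test can give, so that no ratio could pass 0.05.

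Promoters are shown for STAG1 and STAG2, PDS5A and PDS5B, and NIPBL and MAU2 because the members of each pair differed in log2 fold change. The windows run from 250 bases before to 50 bases after a transcript start (RefSeq, GRCh38.p14), and 9 of the 10 genes had at least 1 window in the table. Capitals mark the motifs searched for on both strands, which were TTTGAA (the CHR element of cell cycle genes), CCAAT, TTTCCCGC and TTTGGCGC (both E2F), CACGTG (the E box) and GCATGCGC (the core of the NRF1 motif), and no matches overlapped in these windows. The sequence of STAG1 is chr3:136752329-136752628 on the minus strand and that of STAG2 chrX:123961808-123962107 on the plus strand, the third of 3 windows of that gene.
STAG1: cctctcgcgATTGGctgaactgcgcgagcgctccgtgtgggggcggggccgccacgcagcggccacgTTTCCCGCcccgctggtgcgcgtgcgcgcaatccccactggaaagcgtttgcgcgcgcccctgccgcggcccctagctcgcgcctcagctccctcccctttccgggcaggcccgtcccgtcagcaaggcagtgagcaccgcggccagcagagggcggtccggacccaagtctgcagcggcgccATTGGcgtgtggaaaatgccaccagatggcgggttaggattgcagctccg
STAG2: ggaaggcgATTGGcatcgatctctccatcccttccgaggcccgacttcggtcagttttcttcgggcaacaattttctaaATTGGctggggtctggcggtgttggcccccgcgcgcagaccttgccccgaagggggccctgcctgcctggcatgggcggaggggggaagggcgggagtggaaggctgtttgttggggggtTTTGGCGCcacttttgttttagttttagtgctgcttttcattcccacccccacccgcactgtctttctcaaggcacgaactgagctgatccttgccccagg
Each sequence is printed in the direction of its gene, and ATTGG is CCAAT read on the opposite strand. STAG1 holds TTTCCCGC, starting 183 bases before the annotated start, and ATTGG at 2 places. This STAG2 window, shown because it has the most matches of the 3, holds TTTGGCGC, starting 51 bases before its start, and ATTGG at 2 places. Of the other windows of STAG2, window 1 holds CCAAT once and window 2 holds none of the motifs.

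PDS5A and PDS5B are paralogs that bind RAD21 and recruit the releasing factor WAPL or the acetylation that protects cohesion. PDS5A (chr4:39822863-39977911) was at 207 and 196 CPM in DMSO, at 113 and 112 at 0.2 µM and at 95.2 at 0.34 µM. PDS5B (chr13:32586452-32778019) was at 82.5 and 61.1 CPM in DMSO, at 29.0 and 24.4 at 0.2 µM and at 24.1 at 0.34 µM. For both genes all doxorubicin libraries were below both DMSO libraries. PDS5B fell 2.78-fold, the largest fall of the 10 genes (-1.48 ± 0.19 on the log2 scale, edgeR adjusted p = 0.00516). PDS5A had a log2 fold change of -0.91 (± 0.15, edgeR adjusted p = 0.011) and passed the threshold with DESeq2 (adjusted p = 6.65e-07), with no filter on low counts and with the counts thinned to equal depth. PDS5A supplied 71.5% and 76.2% of the counts of the pair in DMSO, 79.6% and 82.1% at 0.2 µM and 79.8% at 0.34 µM, so that the groups did not overlap. The log2 ratio of PDS5A to PDS5B was higher in doxorubicin than in DMSO by 0.55, at 2.05 ± 0.13 (SD, n = 3) against 1.503 ± 0.25 (SD, n = 2), with the same smallest p of 0.2 in the exact permutation test. The windows of both promoters, chr4:39977862-39978161 on the minus strand and chr13:32586202-32586501 on the plus strand, are as follows.
PDS5A: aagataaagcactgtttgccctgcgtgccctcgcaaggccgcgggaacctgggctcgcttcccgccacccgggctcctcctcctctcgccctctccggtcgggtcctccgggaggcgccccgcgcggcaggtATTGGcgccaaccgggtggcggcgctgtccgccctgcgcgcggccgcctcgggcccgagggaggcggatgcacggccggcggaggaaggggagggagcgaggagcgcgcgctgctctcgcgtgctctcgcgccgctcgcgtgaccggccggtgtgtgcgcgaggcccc
PDS5B: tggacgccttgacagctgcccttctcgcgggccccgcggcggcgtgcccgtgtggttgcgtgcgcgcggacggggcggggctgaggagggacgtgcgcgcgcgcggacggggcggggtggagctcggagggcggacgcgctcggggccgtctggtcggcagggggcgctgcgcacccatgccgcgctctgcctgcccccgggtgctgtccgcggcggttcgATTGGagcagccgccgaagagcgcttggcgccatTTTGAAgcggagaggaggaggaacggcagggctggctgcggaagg
Both hold CCAAT as ATTGG, starting 118 bases before the annotated start in PDS5A and 29 bases before it in PDS5B. That of PDS5B also holds TTTGAA just after the start.

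NIPBL and MAU2 are not paralogs but the 2 subunits of the loader, NIPBL being the large subunit that stimulates the ATPase of cohesin and MAU2 a partner that binds its N-terminal end. NIPBL (chr5:36876769-37066413) was at 157 and 107 CPM in DMSO, at 84.2 and 85.5 at 0.2 µM and at 83.5 at 0.34 µM. MAU2 (chr19:19320829-19358754) was at 34.1 and 37.8 CPM in DMSO, at 50.3 and 49.0 at 0.2 µM and at 55.2 at 0.34 µM. The doxorubicin libraries were all lower than DMSO for NIPBL and all higher for MAU2, and neither gene passed the threshold. NIPBL had a log2 fold change of -0.64 (± 0.19, edgeR adjusted p = 0.0661) and MAU2 one of 0.52 (± 0.15, edgeR adjusted p = 0.0668). For NIPBL the value rested on DMSO replicate 1, since it was -0.35 without that library and -0.91 without DMSO replicate 2. MAU2 remained higher in all 16 alternatives, at 0.44 to 0.62, although these share libraries and are not independent of each other. Within a library there were 4.59 and 2.82 counts of NIPBL per count of MAU2 in DMSO, but 1.68 and 1.74 at 0.2 µM and 1.51 at 0.34 µM. The log2 ratio differed by -1.13, at 0.71 ± 0.11 (SD, n = 3) against 1.85 ± 0.50 (SD, n = 2), the largest difference of the 6 ratios and again with the smallest p of 0.2 that the exact permutation test allows. The promoter windows, chr5:36876519-36876818 and chr19:19320579-19320878, both on the plus strand, are as follows.
NIPBL: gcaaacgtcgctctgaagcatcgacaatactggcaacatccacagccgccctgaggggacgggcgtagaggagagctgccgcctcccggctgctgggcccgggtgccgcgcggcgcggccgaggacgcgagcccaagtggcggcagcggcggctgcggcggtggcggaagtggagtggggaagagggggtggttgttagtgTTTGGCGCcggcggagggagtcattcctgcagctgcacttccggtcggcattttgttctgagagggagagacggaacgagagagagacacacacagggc
MAU2: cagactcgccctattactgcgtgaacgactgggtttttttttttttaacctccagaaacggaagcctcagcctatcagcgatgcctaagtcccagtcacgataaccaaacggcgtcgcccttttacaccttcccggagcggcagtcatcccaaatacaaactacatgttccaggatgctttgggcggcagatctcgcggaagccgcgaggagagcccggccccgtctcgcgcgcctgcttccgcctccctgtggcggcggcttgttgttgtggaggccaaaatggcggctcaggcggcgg
That of NIPBL holds TTTGGCGC, starting 49 bases before the annotated start, and that of MAU2 holds none of the motifs.

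Over all 35116 promoter windows of the table, 15.2% held TTTGAA, 34.6% CCAAT, 1.63% TTTCCCGC, 0.652% TTTGGCGC, 7.26% CACGTG and 3.05% GCATGCGC. Of the 12 windows of the 9 genes, 3 held TTTGAA (CTCF, PDS5B and SMC3), 5 held CCAAT, 2 held TTTCCCGC (SMC1A and STAG1) and 2 held TTTGGCGC (NIPBL and STAG2), while 0 held CACGTG or GCATGCGC. A match describes the letters of the window and not a bound site.

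CTCF, at chr16:67562526-67639177, had close levels in the DMSO libraries, 90.8 and 89.4 CPM. It was at 57.2 and 65.2 CPM at 0.2 µM and at 57.0 at 0.34 µM, so that the groups did not overlap. The log2 fold change was -0.59 (± 0.14, edgeR adjusted p = 0.0365), which passed with DESeq2 (adjusted p = 0.0019). It was thus 1.51-fold lower, where RAD21 was 2.58-fold lower. Within a library there were 0.334 and 0.249 counts of CTCF per count of RAD21 in DMSO, 0.475 and 0.484 at 0.2 µM and 0.512 at 0.34 µM. The log2 ratio of CTCF to RAD21 was higher in doxorubicin by 0.77, at -1.03 ± 0.056 (SD, n = 3) against -1.80 ± 0.30 (SD, n = 2), with no overlap and the smallest p of 0.2 in the exact permutation test. For the subunits of the ring the groups overlapped. The log2 ratio of SMC1A to SMC3 differed by -0.22 (p = 0.4 in the exact permutation test) and that of RAD21 to SMC3 by -0.16 (p = 0.8 in the exact permutation test). Without DMSO replicate 1 the difference for SMC1A to SMC3 was -0.34, and without DMSO replicate 2 it was -0.096. The ratio of RAD21 to SMC3 differed most between the DMSO libraries, at 0.899 and 1.55, and the difference between the groups turned to 0.23 without DMSO replicate 2. After adjustment over the 6 ratios, p was 0.3 for the 4 ratios without overlap, 0.48 for SMC1A to SMC3 and 0.8 for RAD21 to SMC3.

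**Figure D3:**
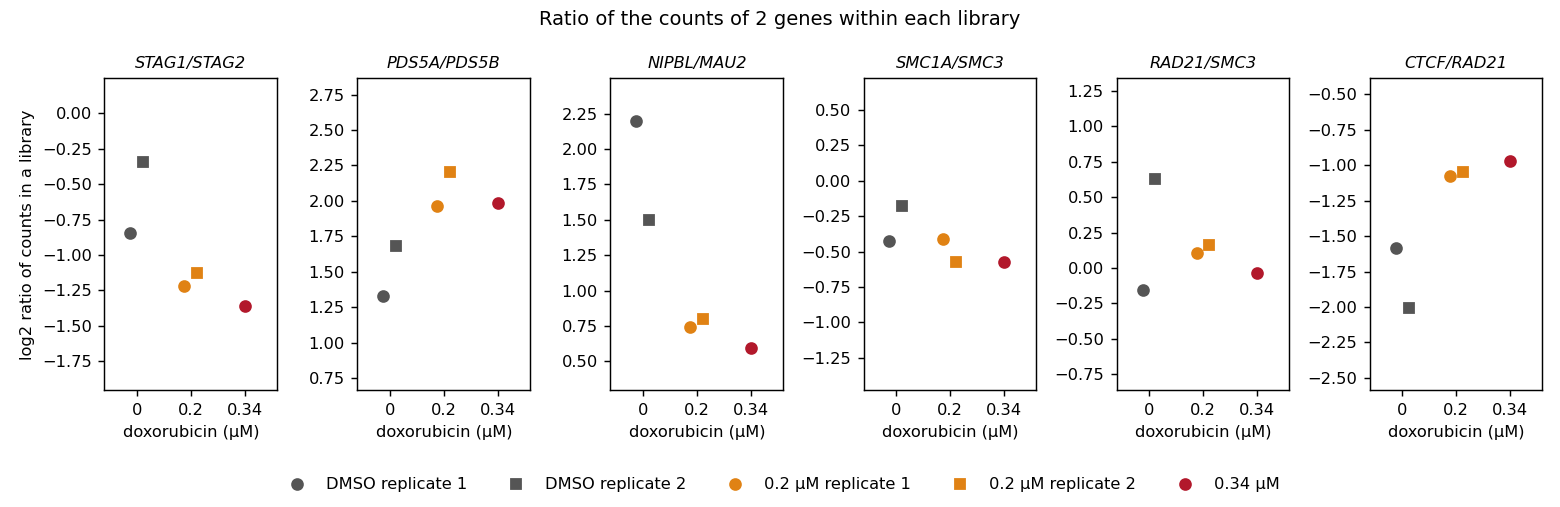
Log2 ratio of the counts of 2 genes within each library (vertical axes, all spanning the same width) by doxorubicin concentration in µM; each point is 1 library. STAG1/STAG2 and NIPBL/MAU2 are lower in all 3 doxorubicin libraries than in both DMSO libraries, PDS5A/PDS5B and CTCF/RAD21 are higher, and SMC1A/SMC3 and RAD21/SMC3 overlap.

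The doses were also compared in a fit of 3 conditions, in which both doses share the DMSO libraries and the lone 0.34 µM library takes its spread from the others. Against DMSO, the log2 fold change at 0.2 µM and at 0.34 µM was -1.39 and -1.49 for SMC1A and -1.21 and -1.23 for SMC3. For RAD21 it was -1.31 and -1.51, and for STAG1 -1.11 and -1.42. For PDS5A it was -0.84 and -1.08, for PDS5B -1.43 and -1.58, for CTCF -0.56 and -0.66, for STAG2 -0.52 and -0.64, for NIPBL -0.64 and -0.66, and for MAU2 0.46 and 0.62. The 0.34 µM library lay below both 0.2 µM libraries for 8 of the 10 genes, as in 28.9% of all genes tested, and above both for MAU2. In this fit 0 of the 10 passed in edgeR at either dose, where 0.963% of all genes tested were called lower at 0.2 µM and 0.509% at 0.34 µM. At an unadjusted p under 0.05 there were 9 of the 10 at each dose, beside 18.8% of all genes tested at 0.2 µM and 17.4% at 0.34 µM. Between the doses the difference was between -0.31 (STAG1, standard error 0.29) and 0.16 (MAU2, standard error 0.26). None of the 10 genes passed in edgeR, DESeq2 or limma voom, and 0 had an unadjusted p under 0.05 in any of these fits. The lowest unadjusted p was 0.327 in edgeR, for STAG1. Over all genes 0% were called and 0.183% had an unadjusted p under 0.05. Since this contrast called no gene at all, 0 of the 10 does not show that the doses acted alike. With 1 library at 0.34 µM, the dose and a difference between libraries cannot be told apart. The standard errors of the differences between the doses were 0.25 to 0.31 for these genes. The smallest difference that could have been detected was not determined.

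Levels can be set beside each other only per length of transcript, for which the MANE Select transcript (GENCODE, used for lengths only) was taken. On this scale, CPM per kb, RAD21 was the highest of the 10 genes in DMSO at 86.3 ± 16.9 (SD, n = 2), followed by SMC3 at 48.4 ± 9.03 and PDS5A at 28.2 ± 1.08. Next came CTCF at 23.6 ± 0.247, SMC1A at 22.2 ± 1.48 and STAG2 at 21.5 ± 0.916, where SMC1A lay within its SD of both neighbours. STAG1 at 14.7 ± 2.95, NIPBL at 12.6 ± 3.40 and PDS5B at 9.61 ± 2.02 each lay within the larger SD of the neighbour in this order, and MAU2 was the lowest at 7.42 ± 0.534. In doxorubicin RAD21 at 33.4 ± 3.21 (SD, n = 3) and SMC3 at 20.9 ± 0.796 were again the highest by this length. CTCF and PDS5A followed at 15.7 ± 1.23 and 14.98 ± 1.42, with STAG2 at 14.6 ± 0.703. MAU2 was then at 10.6 ± 0.68 per kb, above SMC1A at 8.29 ± 0.385, NIPBL at 8.10 ± 0.0954, STAG1 at 6.36 ± 0.761 and PDS5B at 3.46 ± 0.365. With the longest transcript in place of the MANE Select one, chosen after the data were seen, RAD21 in DMSO was at 38.0 CPM per kb, below SMC3 at 40.5, and CTCF at 18.8 was below SMC1A at 21.7 and STAG2 at 19.3. In doxorubicin RAD21 was then at 14.7 CPM per kb, below SMC3 at 17.5 and PDS5A at 14.98, and STAG2 at 13.1 was above CTCF at 12.5. The order of RAD21 and CTCF thus depends on the length used, and MAU2 kept its place as the lowest in DMSO and above SMC1A, NIPBL, STAG1 and PDS5B in doxorubicin.

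Genes that regulate cohesin were measured in the same libraries. Of the 10 regulators of cohesin listed, 4 passed the threshold in edgeR, 6 in DESeq2 and 3 in limma voom, all of them lower in doxorubicin. Of all genes tested, 2.73% were called lower in edgeR, 8.02% in DESeq2 and 367 of 14187 in limma voom. ESPL1, the separase that cleaves RAD21, fell most (-3.63 ± 0.29 on the log2 scale, edgeR adjusted p = 0.00125). SGOL1 (now SGO1), the shugoshin that protects centromeric cohesin, fell by 3.21 on the log2 scale. CDCA5, the sororin that stabilizes cohesion after replication, fell by 2.72, and DDX11, a helicase of sister chromatid cohesion, fell by 1.74, although neither passed in limma voom (adjusted p = 0.0112 and 0.0144). ESCO2, the acetyltransferase of SMC3 in S phase (-2.92, adjusted p = 0.0157), and PTTG1, the securin that inhibits separase (-1.72, adjusted p = 0.0184), did not pass in edgeR, whereas DESeq2 called both and limma voom called ESCO2. ESCO1, the counterpart of ESCO2, which acts throughout interphase, had a log2 fold change of -0.20, and the releasing factor WAPL one of -0.44 (adjusted p = 0.0765). HDAC8, the deacetylase of SMC3, was at -0.61. Of these lists, the regulators and condensin hold many genes that are expressed in S phase and mitosis, and the part of the cell cycle in the lower levels of the 10 genes was not tested.

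Condensin, the related complex that compacts chromosomes in mitosis, shares the SMC architecture of cohesin. Of its 8 genes, 7 passed the threshold in edgeR, all lower, where 2.73% of all genes tested were called lower. Their log2 fold changes ranged from -1.63 (NCAPD2) to -3.72 (NCAPH), and the median of the list was -2.21. NCAPH2 was at -1.04 and did not pass (edgeR adjusted p = 0.099). The ATPases of condensin, SMC2 and SMC4, were among them, at -1.70 and -2.81. In the SMC5/6 complex, which acts in repair, 0 of 7 genes passed in edgeR or limma voom. In edgeR 3 had an unadjusted p under 0.05, where 30.8% of all genes tested did. DESeq2 called 2, both lower, where it called 8.02% of all genes lower. The median log2 fold change of this list was -0.44. NSMCE4A was at -1.43 and SMC6 at -0.98, while NSMCE1 was at 0.49. Of 8 proteins found with CTCF at boundaries, 0 passed in edgeR or limma voom. In edgeR 3 had an unadjusted p under 0.05, again beside 30.8% of all genes. DESeq2 called 2 (MAZ and ADNP, at -1.23 and -0.60), again beside 8.02% of all genes called lower. The median of these 8 was -0.33. The germline counterparts were scarcely expressed. SMC1B, RAD21L1 and CTCFL had at most 9 counts in any library and were not tested, and REC8 and STAG3 had log2 fold changes of -0.10 and 0.024, with 0 called in edgeR, DESeq2 or limma voom and 0 with an unadjusted p under 0.05. The difference between these lists and the 10 genes was not tested.

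**Figure D4:**
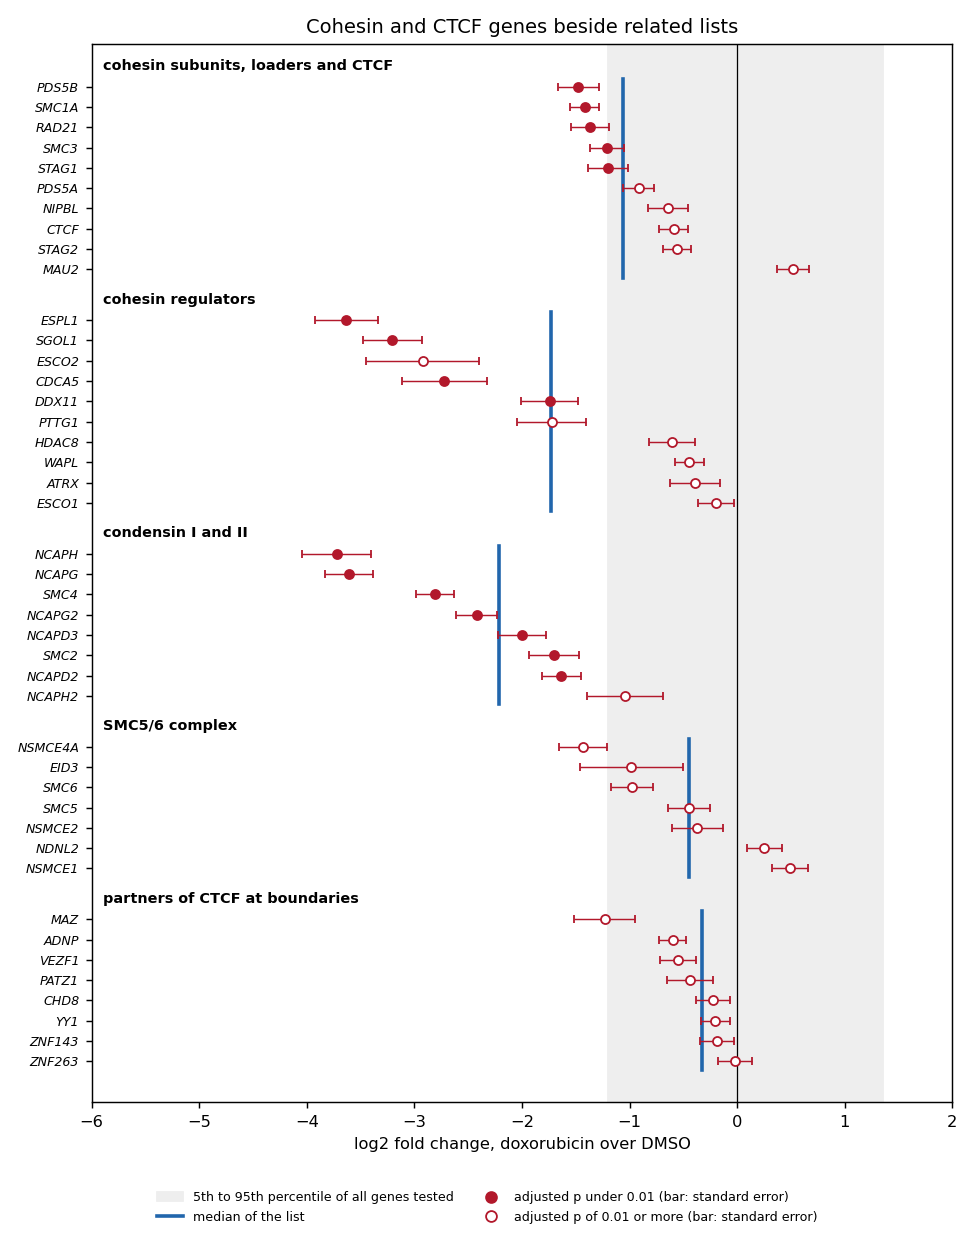
Log2 fold change of doxorubicin over DMSO (horizontal axis) with its standard error for each tested gene of the 5 lists named on the plot; filled points passed an adjusted p of 0.01 in edgeR, blue lines are the medians and the grey band runs from low to high percentiles of all genes tested, as its legend states. The median is -1.06 for the cohesin and CTCF genes, -2.21 for condensin, -0.44 for SMC5/6 and -0.33 for the partners of CTCF.

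The 10 genes were also set beside others by length. A genomic span on GRCh38.p14 was found for 98.1% of the genes tested, and when these were divided by span into 5 groups of like number, 5 of the 10 members lay in group 5, the longest (at least 93169 bp), 2 in group 4 and 3 in group 3. The spans ran from 28.8 kb for RAD21 to 416 kb for STAG1. Over all genes tested, the median log2 fold change was 0.14 in group 1, the shortest, 0.011 in group 3, -0.049 in group 4 and -0.11 in group 5. The 9 members that were lower lay below the median of their group, and MAU2 lay above it. The part of length in the result was not tested.

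**Figure D5:**
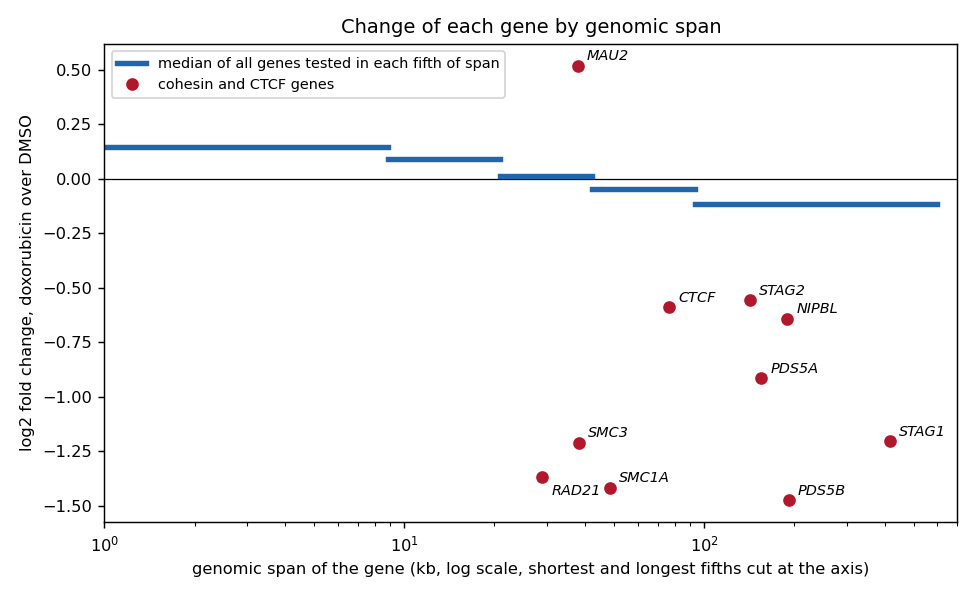
Log2 fold change of doxorubicin over DMSO (vertical axis) by genomic span in kb (horizontal log axis); red points are the 10 genes and blue lines the medians of all genes tested in each of 5 groups of span. The medians pass from 0.14 in the shortest group to -0.11 in the longest, and 9 of the 10 genes lie below them.

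For 4 members the genes of most similar profile were sought by the root mean square difference of log2 CPM, centred on each gene's mean, over the 5 libraries, among 11755 genes whose mean log2 CPM was 1 or more. Nearest to RAD21 were HAUS3 (difference of 0.033), KIAA1549L (0.044) and YEATS4 (0.047). Nearest to STAG1 were SLC25A40 (0.019), SRSF2 (0.053) and GULP1 (0.056), and RAD21 was the 28th nearest (0.097), the closest of the other members. For CTCF they were USP7 (0.019), MRPL22 (0.032) and ZNF639 (0.032), and STAG2 was the closest member (0.079). For MAU2 they were GAK (0.028), ZFYVE27 (0.029) and BSG (0.030), each with a higher level in doxorubicin (log2 fold changes of 0.52 to 0.55), and the other members differed from it by 0.54 to 0.99. With many genes compared over 5 libraries, near profiles are a description only.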

How the data were processed

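RNA-seq of poly-A RNA was analysed from 5 libraries of RPE1 cells. The authors deposited unnormalized read counts by gene, obtained by mapping paired-end reads to hg38 with STAR and counting with featureCounts of Rsubread and the iGenomes annotation. The labels call the libraries stranded. Software versions, whether counting used strand, and how multimapping reads were handled were not given in the sources used here. A further table by the authors, of comparisons (fold changes and p-values of DESeq2), was not used.

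The counts were fitted in R 4.3.3 with edgeR 4.0.16 (TMM, default filter on expression with min.count 10 and min.total.count 15, quasi-likelihood test), with 3 doxorubicin against 2 DMSO libraries and Benjamini-Hochberg adjustment over 14187 genes at 0.01. DESeq2 1.42.0 and limma 3.58.1 (voom) were alternatives, beside other normalizations, filters, doses, thinning, a replicate block and each library left out. Standard errors are the absolute log2 fold change over the square root of F. The scripts were tested on simulated data. Total counts were 23773061 to 36725345, and libraries of one condition differed far beyond sampling noise (chi-square per degree of freedom of 117 and 75.3).

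The 10 genes, the lists and the motifs were chosen with earlier results of these data known. The genes named are the 10, the list genes past the threshold with up to 4 others per list by size of change, and the 3 nearest profiles, and ESCO1, WAPL and the list genes given by their counts were named after their values were seen. Each of the 10 genes overlaps at least 1 other annotated gene on GRCh38.p14. None of these passed the filter on low counts, and RAD21-AS1, MIR3610 and MIR6857 were the ones with a row in the count table. Since the strand setting is not given, reads of a gene and of its antisense partner cannot be told apart. Sequences are from RefSeq. After the values were seen, 1 gene was taken out of the list of regulators, for a reason unrelated to its values, and is not reported here, so the counts of that list are of the genes left.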

Additional observations from a re-analysis of the deposited data

How the results depend on the processing

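All 10 genes kept the direction of their log2 fold change in all 16 alternatives, which are not independent checks. The alternative at an adjusted p under 0.05 reuses the main fit. Leaving out the 0.34 µM library gives the same fit as the DMSO and 0.2 µM libraries without the block. The groups did not overlap for any of the 10 genes, so leaving out a library was unlikely to turn a direction. The number that passed the threshold was 5, where 4.02% of all genes tested passed in either direction. In brackets is this share for the alternatives. The number was 8 with DESeq2 (14.6%) and 8 at an adjusted p under 0.05 (13.6%). It was 4 with limma voom (3.71%), with RLE (3.98%) and with upper quartile normalization (3.93%). It was 6 with no filter (4.92%) and 5 with thinned counts (4.28%). It was 0 for 0.2 µM and 0 for 0.34 µM against DMSO in the fit of 3 conditions. With each doxorubicin library left out in turn it was 0 (1.28% to 1.48%). The replicate number as a block, in the DMSO and 0.2 µM libraries only, gave 5 genes, against 0 in the same 4 libraries without the block. Same-numbered libraries deviated together (r = 0.528 across genes, which are not independent), but with 2 pairs the numbers cannot be taken to pair the samples. The block raised the genes called of all tested to 8.99%, from 1.28% without it. The cause of these changes was not tested.

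Of the 6 ratios, 5 kept their direction in all 7 alternatives, which are not independent checks. Leaving out the library of the higher dose is the same comparison as using the lower dose only. The groups did not overlap for STAG1 to STAG2, PDS5A to PDS5B, NIPBL to MAU2 and CTCF to RAD21. For these ratios, leaving out a library could not turn the direction. The difference in the log2 ratio of RAD21 to SMC3 was between -0.55 and 0.23 with each library left out, the positive value being without DMSO replicate 2. Each of the 10 genes had at least 588 counts in every library. The DMSO libraries differed for NIPBL, RAD21, STAG1, PDS5B and SMC3 (a gap of -0.38 in log2 CPM for SMC3). The part of this spread in their standard errors was not tested.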
